A study of Homo sapiens with 8 samples.

Results

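The genes described here are 8 keratins of simple and luminal epithelium: KRT7, KRT8, KRT18, KRT19, KRT20, KRT13, KRT80 and KRT81. They were listed by gene symbol and not by a cutoff on their values, although earlier results of these data were known at that time. They are 8 of the 58302 genes in the count table, and 7 of them had enough counts to be tested. The name fits them unevenly. KRT8, KRT18, KRT7 and KRT19 are the common keratins of simple and glandular epithelium, and KRT20 marks the umbrella cells of the bladder lining. KRT13 belongs to stratified epithelium that does not cornify and to the basal and intermediate layers of urothelium, KRT80 is found across many epithelia, and KRT81 is a hair keratin.

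RNA was sequenced from xenografts, tumours formed in mice by T24, a widely used human bladder carcinoma line. The tested tumours came from T24 cells in which DDR1, a receptor tyrosine kinase that binds collagen, was expressed at an enforced level (4 libraries, labelled DDR1), and they were set against tumours of T24 control cells (4 libraries). Both groups are T24, so each contrast is within a single cell line. The sources used here do not give the vector, whether cells were cloned or pooled, the host's strain and age, or the time of growth. The titles of the DDR1 libraries carry 2 prefixes and those of the controls 3, and nothing in the labels says that each library is a separate animal. The p-values therefore cover only library-to-library spread, part of which may be technical. In whole-tumour RNA, fewer cells of a type and less RNA per cell cannot be told apart.

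Keratins form the intermediate filaments of epithelial cells. A filament is built from pairs of an acidic type I keratin and a basic type II keratin, so the partners are usually made together. KRT8 (type II) and KRT18 (type I) are the pair of simple epithelium, KRT7 is a further type II keratin of ducts and urothelium, and KRT19 and KRT20 are type I keratins that can join the same filaments. In urothelium, KRT5 and KRT14 mark the basal layer, KRT13 the layers under the surface, and KRT20 the surface itself.

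The 2 types differ in coding sequence, which does not itself show which chains pair. The stretches below, from 6 of the members and from KRT86, are the 57 coding bases at the start of the helical rod, the part through which a type I and a type II chain pair, read 5′ to 3′ from the GENCODE release 29 transcript models on GRCh38. They are shown because they differ between the 2 types and because those of KRT81 and KRT86 are identical. Capitals mark the bases that all members of a type shown here have in common, 37 of 57 in type II (KRT80 and KRT81) and 35 of 57 in type I (4 members).
KRT80 (type II): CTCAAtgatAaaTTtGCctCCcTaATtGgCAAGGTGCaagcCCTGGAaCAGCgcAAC
KRT81 (type II): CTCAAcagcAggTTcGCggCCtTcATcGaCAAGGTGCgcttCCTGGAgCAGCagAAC
KRT86 (type II, not a member): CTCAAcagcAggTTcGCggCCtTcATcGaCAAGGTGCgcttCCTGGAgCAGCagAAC
KRT18 (type I): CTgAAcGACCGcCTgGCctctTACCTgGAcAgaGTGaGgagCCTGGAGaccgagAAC
KRT19 (type I): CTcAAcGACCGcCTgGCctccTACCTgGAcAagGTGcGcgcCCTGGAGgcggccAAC
KRT13 (type I): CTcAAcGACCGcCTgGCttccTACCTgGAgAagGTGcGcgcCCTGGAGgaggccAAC
KRT20 (type I): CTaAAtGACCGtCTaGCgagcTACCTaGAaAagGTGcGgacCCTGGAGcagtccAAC

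Over the whole coding sequence, identity ran between 57% and 70.9% in the 12 pairs of members of the same type, and between 47.8% and 56.6% in the 16 pairs of different type. KRT7 and KRT8 were the most alike at 70.9%. KRT81 was closer to genes outside the group, with 90.4% identity to the hair keratin KRT86 and 90.2% to KRT83. Every type I stretch shown lies in a single exon, whereas every type II stretch shown is joined across an intron.

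The type II genes lie together on chromosome 12 and most of the type I genes on chromosome 17. On chromosome 12 of GRCh38, KRT80 lies at chr12:52168996-52192000 on the minus strand, KRT7 at chr12:52232520-52252186 on the plus strand, KRT81 at chr12:52285913-52291534 on the minus strand and KRT8 at chr12:52897187-52949954 on the minus strand. KRT18, although type I, sits beside its partner at chr12:52948871-52952901 on the plus strand, and the gene models of KRT8 and KRT18 overlap by 1084 bases. On chromosome 17, all on the minus strand, are KRT20 at chr17:40875941-40885227, KRT13 at chr17:41500981-41505705 and KRT19 at chr17:41523617-41528308.

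Levels are CPM, counts relative to the library total, scaled by TMM, a normalisation that adjusts for the make-up of each library, and libraries held 13716285 to 32271031 expected counts. The level of DDR1 itself was 343, 427 and 810 CPM in DDR1 replicates 2, 3 and 4 and 159 CPM in the library labelled DDR1 replicate 1, against 138, 110, 210 and 149 CPM in the controls. The DDR1 level of the library labelled DDR1 replicate 1 thus lay inside the control range, and values for the members are given with and without that library. The epithelial genes EPCAM and CDH1 were detected in all 8 libraries, at 6.72 to 86.0 and 3.65 to 167 CPM in DDR1 tumours and at 12.4 to 44.6 and 23.7 to 120 CPM in controls. The blood-cell gene PTPRC reached at most 0.167 CPM, and HBB was listed at 0 throughout. The summed marker lists reached at most 62.8 CPM for fibroblasts, 76.1 CPM for endothelium and 3.88 CPM for leukocytes in any library. Host cells are mouse cells, whose reads count for a human gene only where they align to it. These values therefore do not measure how much host tissue a tumour held. All DDR1 titles name lane 8, while 2 controls name lane 7 and 2 name no lane, so lane and group cannot be told apart.

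None of the 7 tested keratins passed the test of DDR1 against control tumours across all genes, and the groups overlapped for every member. The 4 abundant simple keratins were present at 218 to 829 CPM in DDR1 tumours and 109 to 563 CPM in controls. KRT19 averaged 394 ± 201 CPM in DDR1 tumours and 203 ± 74.4 CPM in controls (SD, n = 4 each), and KRT81, close to the detection floor, averaged 0.187 ± 0.195 CPM in DDR1 tumours and 0.908 ± 0.500 CPM in controls. Those were the members with an unadjusted p under 0.05. By edgeR's quasi-likelihood test, 0 of the 7 tested members had an adjusted p under 0.05 against a background of 0% of the 18973 tested genes, and 2 of 7 had an unadjusted p under 0.05 against 4.17% of all genes. No member had groups that did not overlap, against 2.40% of all genes. The log2 fold change of DDR1 over control was positive for 4 members and negative for 3, with a median of 0.08, beside a median of 0.00 and a positive value in 49.5% of all tested genes. The smallest adjusted p of any gene was 0.9998, and DESeq2, run as an alternative, called 16 genes and 0 of the members. DDR1 itself had a log2 fold change of 1.52 (SE 0.43, 95% interval 0.55 to 2.49, edgeR unadjusted p = 0.00612). It failed the correction over all genes too (adjusted p = 0.9998), so failing it does not show that a keratin was unchanged.

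**Figure D1:**
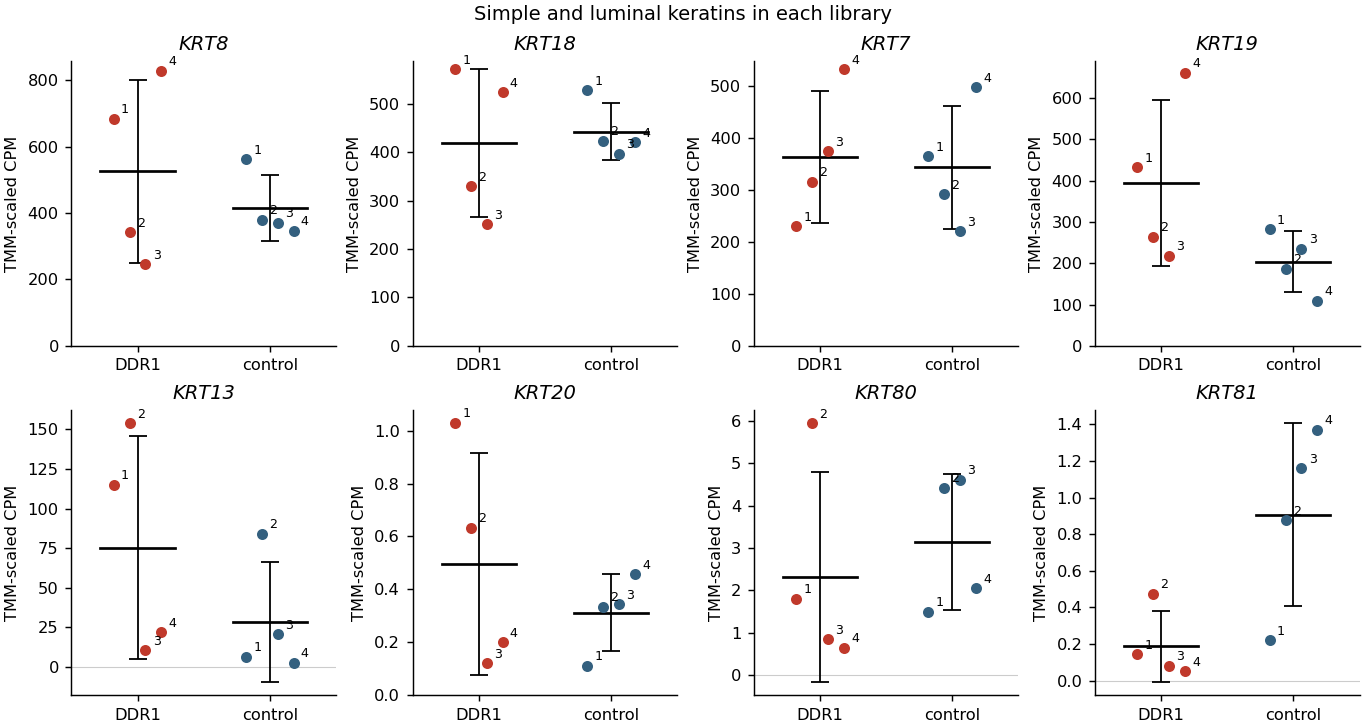
Level of each keratin (TMM-scaled CPM, linear axis) in the 4 DDR1 and 4 control libraries, with points numbered by replicate, a horizontal bar for the mean and whiskers for 1 SD. The groups overlap for every gene, and among the DDR1 libraries KRT8, KRT18 and KRT19 are highest in replicates 1 and 4.

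Taken per kilobase of merged exons, so that genes of different length can be set side by side, the members fell into 3 ranges of level. KRT18 led with a mean of 134 CPM per kb over the 8 libraries, followed by KRT19 at 128, KRT7 at 86.3 and KRT8 at 68.4 CPM per kb. KRT13 came next at 17.8 CPM per kb. KRT80 at 0.628, KRT81 at 0.284 and KRT20 at 0.219 CPM per kb formed the lowest range. Neighbours at the top could not be separated: KRT18 was above KRT19 in 4 of 8 libraries, and KRT7 above KRT8 in 6 of 8. KRT19 was above KRT7, and KRT8 above KRT13, in 7 of 8 libraries. At the bottom, KRT81 was above KRT20 in 4 of 8 libraries. The step between KRT13 and KRT80 was present in 8 of 8 libraries, with a ratio of means of 28.4.

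The leading gene differed by group when merged exons gave the length, and this difference was not tested. On merged exons, KRT19 had the highest level per kilobase in each of the 4 DDR1 libraries and KRT18 in each of the 4 controls. The order depends on the length taken for each gene. With the longest annotated transcript instead, the means were 215 CPM per kb for KRT19, 206 for KRT18, 201 for KRT7 and 164 for KRT8, and KRT7 led in DDR1 replicate 3 and in control replicate 4.

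**Figure D2:**
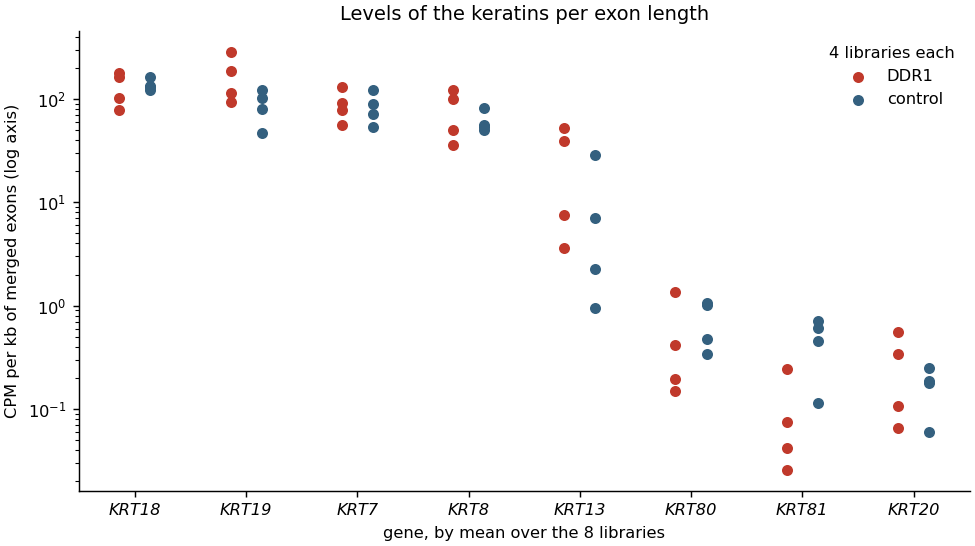
Level per kilobase of merged exons (CPM per kb, log axis) of the 8 keratins, ordered by their mean over the 8 libraries; each point is a library, with the DDR1 libraries left of the controls. KRT18, KRT19, KRT7 and KRT8 overlap at the top, KRT13 spans a wide range below them, and KRT80, KRT81 and KRT20 lie lowest.

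Summed over the members, the level was 1780 ± 655 CPM in DDR1 tumours and 1438 ± 215 CPM in controls (SD, n = 4 each). The DDR1 libraries spread between 1100 and 2570 CPM, below and above the control range of 1250 to 1748 CPM. Of the CPM of all 55 keratin genes, the members made up 19.1 ± 3.19% in DDR1 tumours and 23.1 ± 11.5% in controls. The larger spread of the controls came with control replicate 4, where the share was 40.3% and the sum over all keratins was 3426 CPM, the lowest of the 8 libraries. The 4 skeletal muscle markers summed to 59.3 CPM in that library and to at most 9.05 CPM in the other 7, and the part of muscle tissue in its keratin levels was not tested. Most keratin counts in these tumours therefore belonged to other genes, with the highest CPM for the basal keratins KRT5, at 2785 ± 982 CPM in DDR1 tumours and 2013 ± 912 CPM in controls, and KRT17, at 2614 ± 89.3 CPM in DDR1 tumours and 2548 ± 1108 CPM in controls.

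Neither KRT8 nor KRT18, the filament pair of simple epithelium, passed the test between the groups. KRT8 had 685, 343, 246 and 829 CPM in the DDR1 libraries, against 563, 380, 371 and 347 CPM in the controls. The library labelled DDR1 replicate 1 and DDR1 replicate 4 lay above all controls, and DDR1 replicates 2 and 3 lay below all of them. KRT8 had a log2 fold change of 0.34 (SE 0.37, 95% interval -0.49 to 1.17, edgeR unadjusted p = 0.380, adjusted p = 0.9998). Leaving out the library labelled DDR1 replicate 1 gave 0.19, leaving out DDR1 replicate 4 gave 0.04, and leaving out DDR1 replicate 3 gave 0.58.

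KRT18 had 572, 330, 251 and 524 CPM in the DDR1 libraries, against 529, 424, 397 and 421 CPM in the controls. The DDR1 libraries that were high and low for KRT8 were so for KRT18, while 3 of the controls lay close together. KRT18 had a log2 fold change of -0.08 (SE 0.27, 95% interval -0.67 to 0.52, edgeR adjusted p = 0.9998), and it was -0.26 without the library labelled DDR1 replicate 1. The sign of this value was not stable: leaving out DDR1 replicate 3 gave 0.10, and leaving out the 2 lane 7 controls gave 0.06.

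The partners kept a similar ratio in most libraries. This ratio is of CPM, which does not take out gene length, and compares libraries rather than the genes. The ratio of KRT8 to KRT18 CPM was 1.2, 1.04, 0.979 and 1.58 in the DDR1 libraries, against 1.06, 0.898, 0.935 and 0.824 in the controls. The mean ratio was 1.2 ± 0.270 in DDR1 tumours and 0.929 ± 0.0986 in controls (SD, n = 4 each), with the groups overlapping. The log2 ratio differed by 0.35 between the groups, which missed the threshold (two-sided exact permutation p = 0.0857, where 70 orderings allow a smallest p of 0.0286). Over the alternatives the difference ran between 0.21 and 0.44 and p between 0.0857 and 0.400. FN1, the gene of the matrix protein fibronectin, was at 4133 CPM in the library labelled DDR1 replicate 1 and 7538 CPM in DDR1 replicate 4, where KRT8 was highest, and at 39582 and 91320 CPM in DDR1 replicates 2 and 3. The controls held 50977, 33448, 30841 and 59101 CPM of FN1, beside 563, 380, 371 and 347 CPM of KRT8. The control with the most KRT8 was thus not the one with the least FN1. VIM, another mesenchymal gene, did not follow FN1. It had 431, 756, 150 and 1096 CPM in the DDR1 libraries, against 516, 437, 564 and 188 CPM in the controls. Among the DDR1 libraries VIM was highest and lowest where KRT8 was. SPARC and CDH2 were highest and lowest in the same libraries as FN1 in both groups. SPARC had 32.2, 161, 374 and 106 CPM in the DDR1 libraries, against 124, 132, 62.9 and 351 CPM in the controls. CDH2 had 21.8, 58.9, 145 and 96.0 CPM in the DDR1 libraries, against 59.7, 49.7, 20.5 and 71.5 CPM in the controls. ZEB1 stayed between 27.2 and 31.3 CPM in DDR1 tumours and between 13.2 and 24.6 CPM in controls. Summed over all 9 listed mesenchymal genes, a sum made up mostly of FN1, the level was 4686 to 92145 CPM in DDR1 tumours and 31588 to 59823 CPM in controls. The part of mesenchymal traits in the keratin levels was not tested.

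**Figure D3:**
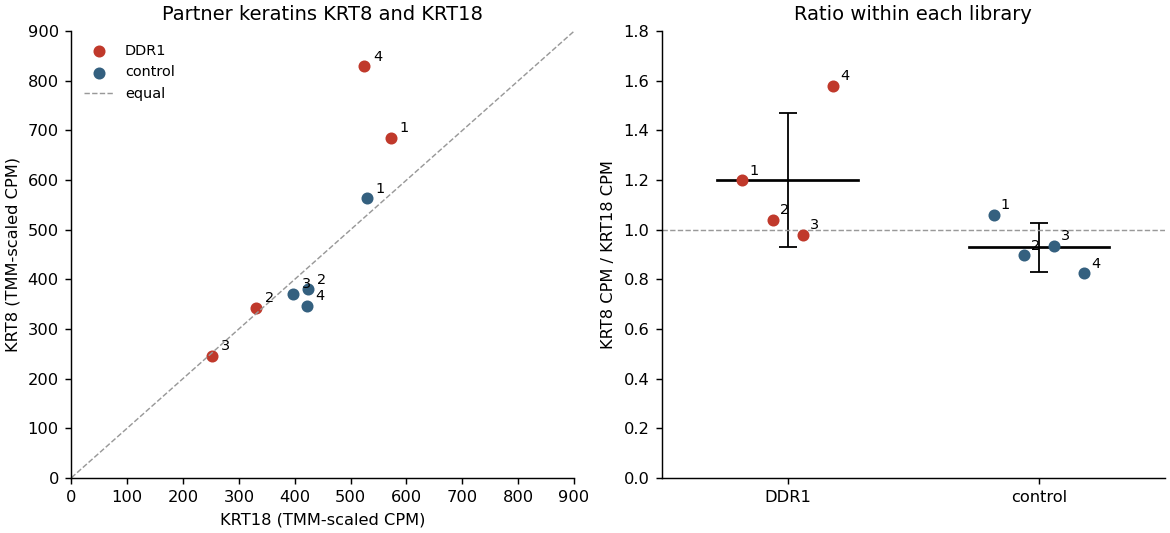
Left, KRT8 against KRT18 (TMM-scaled CPM, linear axes) in each library, numbered by replicate, with a dashed line of equal CPM; right, their ratio in each DDR1 and control library with the mean and 1 SD. Both rise together, and DDR1 replicate 4 has the highest ratio, 1.58.

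Reads that could belong to copies or to the overlapping partner limit these values. GENCODE names 50 pseudogenes after KRT8 and 67 after KRT18, and 47 and 57 of them had a count above 0. They took 2.76 to 6.79% of the counts of KRT8 plus its pseudogenes in DDR1 libraries and 4.36 to 6.94% in controls. For KRT18 the share was 2.72 to 6.08% in DDR1 libraries and 2.89 to 4.87% in controls. The copies with the highest CPM were KRT8P3, at 6.33 ± 2.44 CPM in DDR1 tumours and 5.26 ± 1.8 CPM in controls, and KRT18P31, at 5.11 ± 0.898 CPM in DDR1 tumours and 4.59 ± 1.61 CPM in controls. Of the 150-base windows of the KRT18 coding sequence, 13.6% also occur in transcripts annotated to KRT8. The protocol does not say whether the library kept strand. With the pseudogene counts added to their parents, the log2 ratio difference was 0.33.

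KRT7 stood at a similar level in both groups. It had 230, 316, 374 and 532 CPM in the DDR1 libraries, against 365, 292, 220 and 497 CPM in the controls. The highest library of each group was replicate 4, and the ranges coincided almost entirely. KRT7 had a log2 fold change of 0.08 (SE 0.31, 95% interval -0.61 to 0.77, edgeR adjusted p = 0.9998), and it became 0.25 with the library labelled DDR1 replicate 1 left out or -0.16 with DDR1 replicate 4 left out. The antisense gene KRT7-AS, which overlaps KRT7 by 2401 bases, held 11.4 CPM in DDR1 tumours and 9.99 CPM in controls on average, and 6.1% of the 150-base windows of the KRT7 coding sequence occur in it. Reads from that shared sequence cannot be assigned without strand.

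KRT19, the smallest keratin and a type I chain without the usual tail, had the largest difference in mean CPM of the members. It had 433, 264, 218 and 662 CPM in the DDR1 libraries, against 283, 187, 235 and 109 CPM in the controls. The library labelled DDR1 replicate 1 and DDR1 replicate 4 lay above all controls, and the other 2 DDR1 libraries lay inside the control range. Its log2 fold change was 0.95 (SE 0.39, 95% interval 0.07 to 1.83, edgeR unadjusted p = 0.0363), and it failed the correction over all genes (adjusted p = 0.9998). The value stayed positive under every alternative run. Its lowest was 0.59 (DDR1 replicate 4 left out) and its highest 1.23 (lane 7 controls left out). It was 0.91 when the library labelled DDR1 replicate 1 was left out. With libraries left out, the edgeR unadjusted p ran between 0.0142 (DDR1 replicate 3) and 0.159 (the 2 controls that name no lane). The unadjusted p thus did not stay under 0.05 throughout. KRT19 pseudogenes took at most 0.067% of the counts in any library. The ratio of KRT19 to KRT7 CPM was 1.14 ± 0.571 in DDR1 tumours and 0.676 ± 0.354 in controls (SD, n = 4 each), again with overlap.

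KRT13 varied more than any other abundant member, within both groups. It had 115, 154, 10.6 and 22 CPM in the DDR1 libraries, against 6.54, 84.3, 20.6 and 2.74 CPM in the controls. The library labelled DDR1 replicate 1, DDR1 replicate 2 and control replicate 2 were high, and the other 5 libraries were at or under 22 CPM. The within-group SD of its log2 CPM was 1.99, larger than that of 98.9% of the 11894 genes with a mean of at least 5 CPM, whose median was 0.32. The same SD was 0.42 for KRT18, 0.50 for KRT7, 0.63 for KRT8 and 0.66 for KRT19. The log2 fold change of KRT13 was 1.39 (SE 1.07, 95% interval -1.0 to 3.79, edgeR adjusted p = 0.9998), and it became 1.12 with the library labelled DDR1 replicate 1 left out. With other libraries left out it was as low as 0.78 (DDR1 replicate 2) and 0.74 (the 2 controls that name no lane), and as high as 2.91 (control replicate 2).

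KRT4, the type II partner of KRT13 in stratified epithelium that does not cornify, varied even more. It had 28.9, 155, 13.2 and 0.650 CPM in the DDR1 libraries, against 10.2, 144, 1.21 and 1.22 CPM in the controls. Its highest libraries, DDR1 replicate 2 and control replicate 2, were also high for KRT13. The pair was not in step across libraries, since the ratio of KRT13 to KRT4 CPM ran between 0.803 and 33.8 in DDR1 tumours and between 0.586 and 17.1 in controls.

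Epidermal markers were highest in the same pair of libraries. The list held 7 symbols for 6 genes, since it gave loricrin under both of its symbols. Summed over these 6 genes, the markers came to 14.5, 125, 25.2 and 16.5 CPM in the DDR1 libraries, against 9.91, 142, 10.9 and 9.29 CPM in the controls. Of these, 3 genes passed the filter on low counts and 0 were at 0 in every library. KRT10, a keratin of cells that leave the basal layer, had 63.6 CPM in DDR1 replicate 2 and 62.7 CPM in control replicate 2, and 8.76 to 18.5 CPM in the other 6 libraries. FLG, which encodes the barrier protein filaggrin, had 43.6 CPM in DDR1 replicate 2 and 57.8 CPM in control replicate 2, and at most 5.14 CPM elsewhere. The part of epidermal or host tissue in the KRT13 level was not tested. The library labelled DDR1 replicate 1 had 115 CPM of KRT13 with an epidermal sum of only 14.5 CPM.

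**Figure D4:**
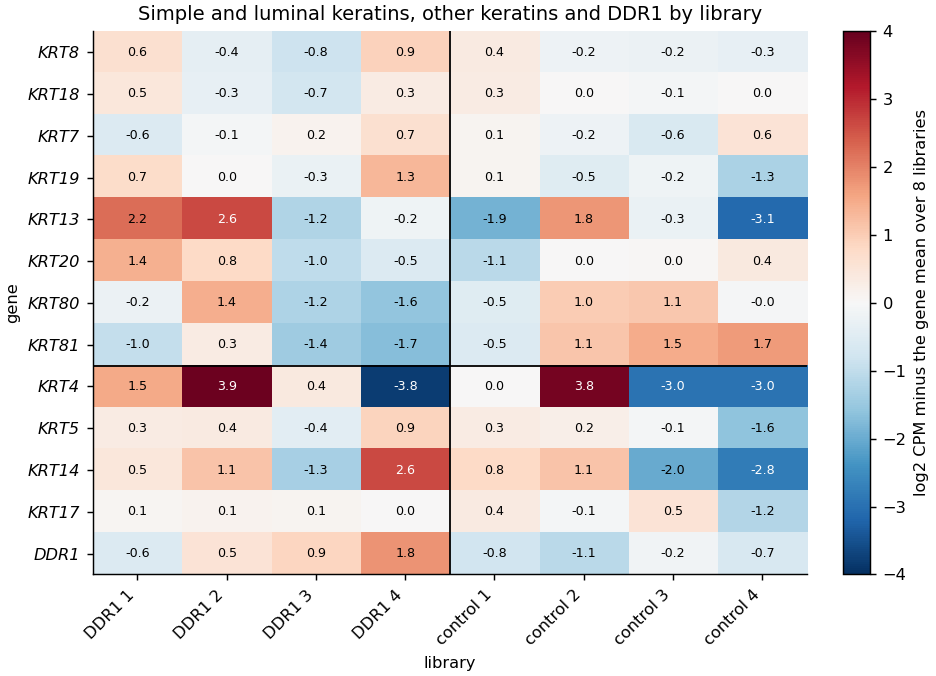
Log2 CPM of each gene minus its mean over the 8 libraries (colour and printed value), with DDR1 libraries left of the vertical line and controls right of it; the 8 keratins are above the horizontal line, and KRT4, KRT5, KRT14, KRT17 and DDR1 below it. KRT8 and KRT18 share their pattern, KRT13 and KRT4 are both high in DDR1 replicate 2 and control replicate 2, and control replicate 4 is low for KRT19, KRT13 and the basal keratins.

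KRT80, a type II keratin whose protein lies near cell junctions, was low in all libraries. It had 1.81, 5.95, 0.850 and 0.650 CPM in the DDR1 libraries, against 1.5, 4.43, 4.61 and 2.06 CPM in the controls, from 13 to 188 counts. DDR1 replicate 2 was the highest library of all and DDR1 replicates 3 and 4 the lowest. The log2 fold change was -0.44 (SE 0.69, 95% interval -1.99 to 1.11, edgeR adjusted p = 0.9998). Leaving out the library labelled DDR1 replicate 1 gave -0.34, and leaving out DDR1 replicate 2 gave -1.5. The value shrank to -0.16 when DDR1 replicate 3 was left out and to -0.13 when DDR1 replicate 4 was, and it was -0.20 with control replicate 3 and -0.23 with control replicate 2 left out.

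KRT81 was close to the floor of detection and was the member with the smallest p. It had 0.144, 0.474, 0.0809 and 0.05 CPM in the DDR1 libraries, against 0.222, 0.877, 1.16 and 1.37 CPM in the controls. Behind these values stand 5, 15, 2 and 1 counts in the DDR1 libraries, against 4, 21, 27 and 18 counts in the controls. In 3 of 4 DDR1 libraries the level was below all controls, and DDR1 replicate 2 was above control replicate 1. The log2 fold change was -2.17 (SE 0.71, 95% interval -3.76 to -0.58, edgeR unadjusted p = 0.0127), and it failed the correction over all genes (adjusted p = 0.9998). It was -2.04 without the library labelled DDR1 replicate 1, -3.15 without DDR1 replicate 2 and -1.49 without the 2 controls that name no lane.

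The KRT81 counts are also uncertain in their origin. The KRT81 stretch printed above is identical to that of KRT86, and 33.4% of the 150-base windows of the KRT81 coding sequence occur in KRT86 transcripts. The KRT81 gene lies inside the KRT86 model on the other strand. KRT86 held 0.120 ± 0.0589 CPM in DDR1 tumours and 0.129 ± 0.0373 CPM in controls. With the counts of KRT83 and KRT86 added to those of KRT81, the log2 fold change was -1.62 (edgeR unadjusted p = 0.00874).

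KRT20, the surface marker of differentiated urothelium, was barely detected. It had 1.03, 0.633, 0.121 and 0.200 CPM in the DDR1 libraries, against 0.111, 0.334, 0.344 and 0.457 CPM in the controls. These are 36, 20, 3 and 4 counts in the DDR1 libraries, against 2, 8, 8 and 6 counts in the controls. The library labelled DDR1 replicate 1 and DDR1 replicate 2 were above all controls, and the other 2 DDR1 libraries were inside the control range. KRT20 did not pass the filter on low counts. With no filter its log2 fold change was 0.75 (edgeR unadjusted p = 0.286, adjusted p = 0.863).

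**Figure D5:**
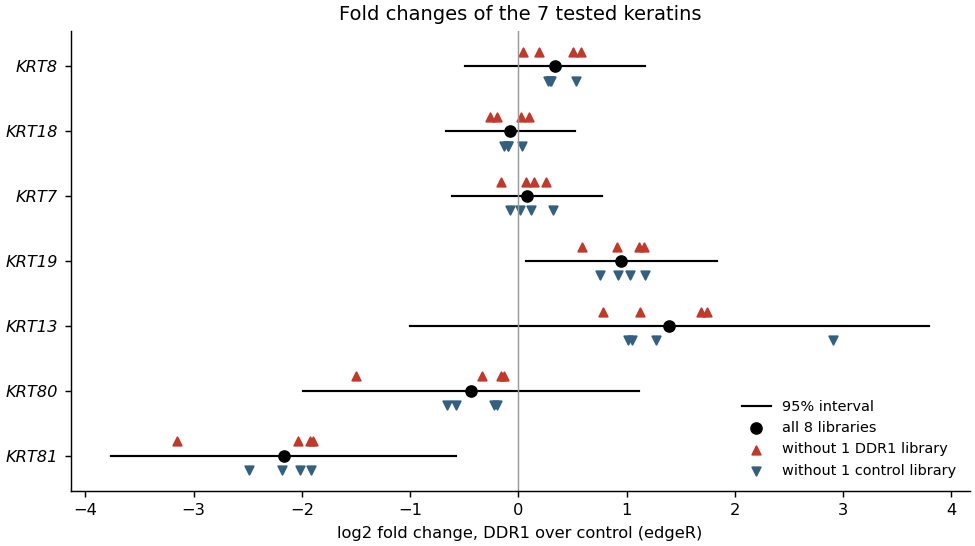
Log2 fold change of DDR1 over control for the 7 tested keratins (edgeR), with the 95% interval as a line, the value over all 8 libraries as a circle, and the values with 1 DDR1 library (upward triangles) or 1 control library (downward triangles) left out. KRT7 and KRT18 lie around 0 and change sign, and KRT19 stays above 0 and KRT81 below 0 in every such fit. KRT13 moves most when control replicate 2 is left out, and KRT80 when DDR1 replicate 2 is left out.

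Across the 8 libraries the members did not vary as a block. Of the 21 pairs among the 7 tested members, log2 CPM was positively correlated in 9 and negatively in 12. With the 7 relations between DDR1 and each member, 28 relations were computed, of which 0 passed after Benjamini-Hochberg adjustment of exact permutation p-values and 4 had an unadjusted p under 0.05. The libraries share a cell line and, in part, a title prefix, so they may not be fully independent.

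The closest pair was KRT8 and KRT18, with Pearson's r = 0.90 (exact permutation p = 0.00226, adjusted p = 0.0632) and Spearman's rho = 0.90 (exact permutation p = 0.00456, adjusted p = 0.128). Without the 2 libraries farthest from the median of KRT8, the library labelled DDR1 replicate 1 and DDR1 replicate 4, r was 0.93, and over deviations from the group means it was 0.97. KRT8 with KRT19 gave r = 0.78 (exact permutation p = 0.0186, adjusted p = 0.191) and rho = 0.69 (exact permutation p = 0.0694, adjusted p = 0.486). Over all 8 libraries that relation rested on those same 2 libraries, since r was 0.28 without them, while over deviations from the group means of all 8 it was 0.87.

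Over all 8 libraries KRT7 showed no relation that passed with the other simple keratins. Its r was 0.10 with KRT8 (exact permutation p = 0.804), -0.02 with KRT18 (exact permutation p = 0.957) and -0.03 with KRT19 (exact permutation p = 0.953), and its rho was 0.00, -0.07 and 0.02 in the same order. These values depended on control replicate 3 and DDR1 replicate 4, without which r was -0.55 with KRT8, -0.35 with KRT18 and -0.83 with KRT19. KRT80 and KRT81 gave r = 0.78 (exact permutation p = 0.0320, adjusted p = 0.224) and rho = 0.76 (exact permutation p = 0.0368, adjusted p = 0.486), and r was 0.80 without DDR1 replicates 2 and 4. KRT19 and KRT81 gave r = -0.76 (exact permutation p = 0.0205, adjusted p = 0.191) and rho = -0.71 (exact permutation p = 0.0576, adjusted p = 0.486), and r was -0.47 without DDR1 replicate 4 and control replicate 4. No relation between the DDR1 level and a member passed. The largest r values of DDR1 were -0.62 with KRT81 (rho = -0.60, exact permutation p for r = 0.102) and 0.57 with KRT19 (rho = 0.43, exact permutation p for r = 0.146). Without DDR1 replicates 3 and 4, r was -0.01 with KRT81 and 0.22 with KRT19. Over deviations from the group means it was -0.17 with KRT81 and 0.23 with KRT19.

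The r values below are the highest of a search over many genes with only 8 libraries, which favours high values, and they were not tested. Genes with a log2 CPM pattern most like that of a member were sought among 11889 genes with a mean of at least 5 CPM. The most similar genes over the 8 libraries are named as a description. For KRT7 they were SLC12A7, a potassium-chloride cotransporter, with r = 0.986, and CEP72, a centrosomal protein gene, with r = 0.979, both on chromosome 5. For KRT8 they were TMEM107, which encodes a protein of the cilium base, with r = 0.954 and the histone gene HIST1H2AI with r = 0.949. For KRT18 they were CDC45, a replication helicase factor, with r = 0.972, and the kinase gene MKNK1 with r = 0.971. For KRT19 they were the kinesin gene KIF13A with r = 0.973 and the transcription factor gene STAT5B with r = 0.970. For KRT13 they were GCNT3, a mucin glycosyltransferase gene, with r = 0.987, and PTMA, which encodes prothymosin alpha, with r = 0.951. GCNT3 had 14.9, 30.7, 3.84 and 5.45 CPM in the DDR1 libraries, against 2.33, 20.6, 6.16 and 1.14 CPM in the controls, with the same 3 libraries high as for KRT13.

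No gene of the other lists passed the test either. Of 21 basal and squamous keratins, 10 were tested and 0 passed, 8 had a positive log2 fold change, and the median was 0.32, beside 0.00 for all tested genes. KRT14, the type I keratin of basal cells, averaged 1016 ± 1014 CPM in DDR1 tumours and 433 ± 417 CPM in controls (log2 fold change 1.23, SE 0.96), and KRT6A, a keratin of wounded and squamous epithelium, 303 ± 327 CPM in DDR1 tumours and 122 ± 82.8 CPM in controls (log2 fold change 1.31, SE 0.90). Of 25 hair and root sheath keratins, 2 were tested and 0 passed. KRT27, of the inner root sheath, averaged 75.2 ± 51.9 CPM in DDR1 tumours and 28.8 ± 21.7 CPM in controls, and KRT75, also of the hair follicle, 5.56 ± 3.86 CPM in DDR1 tumours and 12.7 ± 8.50 CPM in controls.

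The proteins that anchor or bind keratin filaments were all measured, and 0 of 20 passed, with 13 positive values and a median of 0.23. DSP, which ties keratin to desmosomes, averaged 2144 ± 222 CPM in DDR1 tumours and 1836 ± 578 CPM in controls. PPL, a plakin that links filaments to the cell border, averaged 566 ± 230 CPM in DDR1 tumours and 344 ± 106 CPM in controls (log2 fold change 0.72, edgeR unadjusted p = 0.0581), and EPPK1, a plakin that bundles keratin, 87.4 ± 75.3 CPM in DDR1 tumours and 26.6 ± 24.9 CPM in controls (log2 fold change 1.71, edgeR unadjusted p = 0.0618). Among 14 other intermediate filament genes, 8 were tested and 0 passed, with a median of -0.03. VIM, the filament of mesenchymal cells, averaged 608 ± 408 CPM in DDR1 tumours and 426 ± 167 CPM in controls, with 0.51 as its log2 fold change. NES, the filament of progenitor cells, averaged 0.689 ± 0.256 CPM in DDR1 tumours and 1.29 ± 0.766 CPM in controls (log2 fold change -0.91, edgeR unadjusted p = 0.0898). SYNC, which encodes the muscle filament protein syncoilin, averaged 5.29 ± 1.15 CPM in DDR1 tumours and 2.55 ± 1.40 CPM in controls (log2 fold change 1.06, edgeR unadjusted p = 0.0310, adjusted p = 0.9998).

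Of 20 transcription factors listed for simple and luminal lineages, 16 were tested, 0 passed, 13 were positive and the median was 0.26. The list is not purely luminal, since it also holds TP63. TP63, the factor of basal cells, had the highest CPM, at 231 ± 123 CPM in DDR1 tumours and 185 ± 35.3 CPM in controls. FOXA1, a factor of luminal urothelium, averaged 27.5 ± 21.7 CPM in DDR1 tumours and 14.6 ± 8.17 CPM in controls, with its highest value, 58.3 CPM, in the library labelled DDR1 replicate 1. SPDEF, an Ets factor of secretory epithelium, averaged 5.51 ± 9.82 CPM in DDR1 tumours and 1.33 ± 0.749 CPM in controls. All 14 genes listed as surface genes of simple epithelium were tested, 0 passed and the median was 0.04. CDH3, the cadherin with the highest CPM of the list, averaged 185 ± 90.7 CPM in DDR1 tumours and 258 ± 21.0 CPM in controls. MUC1, a luminal mucin, averaged 5.16 ± 4.04 CPM in DDR1 tumours and 1.98 ± 2.58 CPM in controls (log2 fold change 1.37, SE 0.87), and CLDN7, a tight junction claudin, 4.60 ± 4.95 CPM in DDR1 tumours and 2.31 ± 1.76 CPM in controls (log2 fold change 0.99, SE 0.77).

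Of 9 genes of mesenchymal traits, 8 were tested and 0 passed, with 6 positive values, 2 negative and a median of 0.41. FN1 had a log2 fold change of -0.29 (SE 0.81). ZEB2, a repressor of epithelial genes, averaged 9.95 ± 5.30 CPM in DDR1 tumours and 22.9 ± 9.53 CPM in controls (log2 fold change -1.20, edgeR unadjusted p = 0.0242, adjusted p = 0.9998). Its relative ZEB1 averaged 29.2 ± 1.88 CPM in DDR1 tumours and 21.6 ± 5.63 CPM in controls (log2 fold change 0.43, edgeR unadjusted p = 0.0719, adjusted p = 0.9998).

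No marker of another cell type passed the test. Host cells are mouse cells, so these counts of human genes do not measure the amount of host tissue. Of 7 fibroblast genes 4 were tested, with log2 fold changes of -0.71 for the collagen gene COL1A1 and -0.31 for PDGFRB. Of 5 endothelial genes 3 were tested, with 0.66 for CDH5, 0.97 for VWF and 0.59 for PECAM1. Of 6 leukocyte genes 2 were tested, with -0.89 for ADGRE1 and 0.11 for CSF1R, and of 3 adipocyte genes 2, with 0.42 for FABP4 and 0.08 for PLIN1. Of 4 skeletal muscle genes 2 were tested, with -2.86 for the myosin gene MYH1 and -3.01 for MYH2. The epidermal genes KRT10 and IVL had log2 fold changes of 0.31 and 0.82. All 13 mitochondrially encoded genes were tested, 12 of them positive, with a median of 0.21 and with 0.04 for MT-CO1, 0.60 for MT-CO3 and 0.53 for MT-ATP6.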

How the data were processed

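RSEM 1.3.1, STAR 2.7.5, Trim Galore 0.6.4 and FastQC 0.11.9 were used with GRCh38, per the submitters' processing notes; per the labels' protocols, libraries were poly-T selected and read as paired ends of 150 bp. The sources used here do not give the annotation release, the strand setting or any removal of mouse reads. The authors deposited RSEM expected counts for 58302 genes, rounded here before every count test, and TMM-normalized log2 values for 22480 genes, used here only in an alternative. Gene IDs were matched to GENCODE release 29 (58039 matched).

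DDR1 was tested against control over 8 libraries with edgeR 4.0.16's quasi-likelihood test (R 4.3.3, limma 3.58.1), filterByExpr with a minimum count of 10, TMM scaling and Benjamini-Hochberg adjustment over 18973 genes; an adjusted p under 0.05 was called. Log2 CPM used a prior count of 2. Exact permutation tests covered the KRT8 to KRT18 ratio and the correlations. Levels per length divided CPM by merged exon length. The pipeline was tested on simulated counts. No libraries were duplicates (lowest chi-square per degree of freedom 31.1). Named genes were the members, DDR1, and from each list the most abundant gene and the 2 with the smallest p. KRT4, KRT5, FLG, EPCAM, CDH1, PTPRC, HBB, SPARC and CDH2 fell outside that rule and were chosen after their values were seen. Members and lists were chosen with earlier results of these data known. Alternatives were other scalings and filters, DESeq2 1.42.0, limma-voom, limma-trend, leaving out libraries, summing title prefixes, other library sizes, protein-coding genes only, added copies, and transcript length. Some sequence is not reported here.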

Additional observations from a re-analysis of the deposited data

Results flagged for a closer look

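KRT8 in control replicate 1 stood apart from the other controls: 563 CPM, with the next highest control at 380 CPM, a gap of 0.847 of the range of the group. It was the only value of 18 groups of 4 libraries examined (each of the 8 keratins and the KRT8 to KRT18 ratio in both groups) that did so, and chance flags about 1 in 20 such groups. KRT18 was also highest among controls in that library, at 529 CPM. Without control replicate 1 the log2 fold change of KRT8 was 0.53, and KRT8 was still not called.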

How the results depend on the processing

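No member was called under any of the 22 alternatives, and the number of genes called was 0 in all but DESeq2, which called 16 (8 higher, 8 lower). KRT8, KRT19, KRT13, KRT80 and KRT81 kept their direction under every alternative that gave a value. KRT18 had a log2 fold change of 0.06 without the controls of lane 7 and 0.04 with title prefixes summed, and between -0.26 and 0.10 with a library left out. KRT7 had -0.06 with title prefixes summed and between -0.16 and 0.32 with a library left out. The causes were not tested. With a library left out, the relations with an adjusted p under 0.05 numbered 0 to 3, with the 3 found without DDR1 replicate 3, and the log2 ratio of KRT8 to KRT18 differed by 0.21 to 0.44. The difference in DDR1 log2 CPM was 1.33 (exact permutation p = 0.0571) and ran between 0.96 and 1.73 with a library left out. KRT80 and KRT81 had no value with the 5 CPM filter, KRT81 had no adjusted p in DESeq2, and correlations were not computed over title prefixes. No paired analysis was possible because the labels give no replicate number shared between the groups. Counts of 1 to 36 limit KRT20 and KRT81.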
